A study of Mus musculus with 18 samples.

Results

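Resting RAW264.7 mouse macrophages after 4 h with tert-butylhydroquinone (TBHQ) are described here against untreated cells of the same line. The samples were taken by their labels: every library of TBHQ without a stimulus and every untreated control, which makes 6 of 18 samples, 3 in each group. The count table lists 56748 genes, of which 27701 had a count in at least 1 library and 13691 passed a filter on low counts and were tested.

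The study asked how TBHQ, a phenolic antioxidant that activates Nrf2, changes the response of macrophages to bacterial and viral stimuli. Cells were plated and given 4 h to adhere. The control received nothing further, and the TBHQ cells received 5 µM TBHQ and were lysed 4 h later. The other 4 groups used here enter a comparison at the end: LPS at 0.1 µg/mL or poly(I:C) (PIC) at 20 µg/mL for 12 h, each without TBHQ or after 4 h of it. RAW264.7 is an immortalised line, so the libraries show 1 cell line and not primary macrophages, and the methods call the replicates of a group biological. The legend of the design figure sets the control beside the arms of 12 h, whereas the TBHQ cells were lysed after their 4 h, so harvest time differs between the groups. The methods do not give the hour at which the control was lysed. TBHQ was dissolved in DMSO, and no solvent is listed for the control. TBHQ, harvest time and solvent therefore cannot be told apart in this comparison.

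The 6 libraries carry the markers of the labelled cell type. All 9 macrophage markers were present, led by the lysozyme gene Lyz2, and their summed level was 6445, 6504 and 6129.9 FPKM in the control libraries and 5803, 5885 and 5819.5 FPKM with TBHQ. FPKM is a level per gene length and library size. Of 20 markers of other cell types, 9 had no count in any of the 6 libraries, among them Cd3e, Krt8 and Col3a1. The most abundant of these markers was S100a8, with at most 10 counts in a library. The 20 together summed to 1.34, 1.05 and 1.18 FPKM in the control and 0.980, 0.396 and 0.871 FPKM with TBHQ.

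TBHQ is oxidised in cells to a quinone that reacts with cysteines of Keap1, the protein that otherwise hands the transcription factor Nrf2 to the proteasome. Nrf2 freed from Keap1 binds antioxidant response elements with a small Maf partner and raises genes for glutathione, thioredoxin, NADPH and heme breakdown. In macrophages Nrf2 is also known for lowering cytokine transcription.

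The response at 4 h was wide and mostly shallow. At a false discovery rate (FDR) below 0.05, 1943 genes (14.2% of those tested) were higher with TBHQ and 2030 (14.8%) were lower, 29.0% together. Counts of called genes in the lists below are to be read beside these shares, and no list was tested as a set. Adjusted p values below are edgeR quasi-likelihood p values corrected by the method of Benjamini and Hochberg across the 13691 genes, and SE is the standard error of the difference between group means in log2 counts scaled to library size. Of the 3973 called genes, 3134 (78.9%) differed by less than 0.5 on the log2 scale, and the median log2 fold change of all tested genes was -8.57e-05. An FDR below 0.01 with an absolute log2 fold change above 2 left 26 genes, 0.190% of those tested, and 21 of these averaged fewer than 50 counts over the 6 libraries. This count depends on the settings: it was 39 with no filter, 16 when only the compared conditions were fitted, 7 at a mean of at least 50 counts, and 2 and 13 by limma on log2 FPKM plus 1 and plus 0.1. In 5607 genes, 41.0% of those tested, the 3 TBHQ libraries lay entirely above or entirely below the 3 controls. Protein-coding genes gave 1836 higher and 1871 lower of 11262 tested, and pseudogenes 38 higher and 87 lower of 894.

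**Figure D1:**
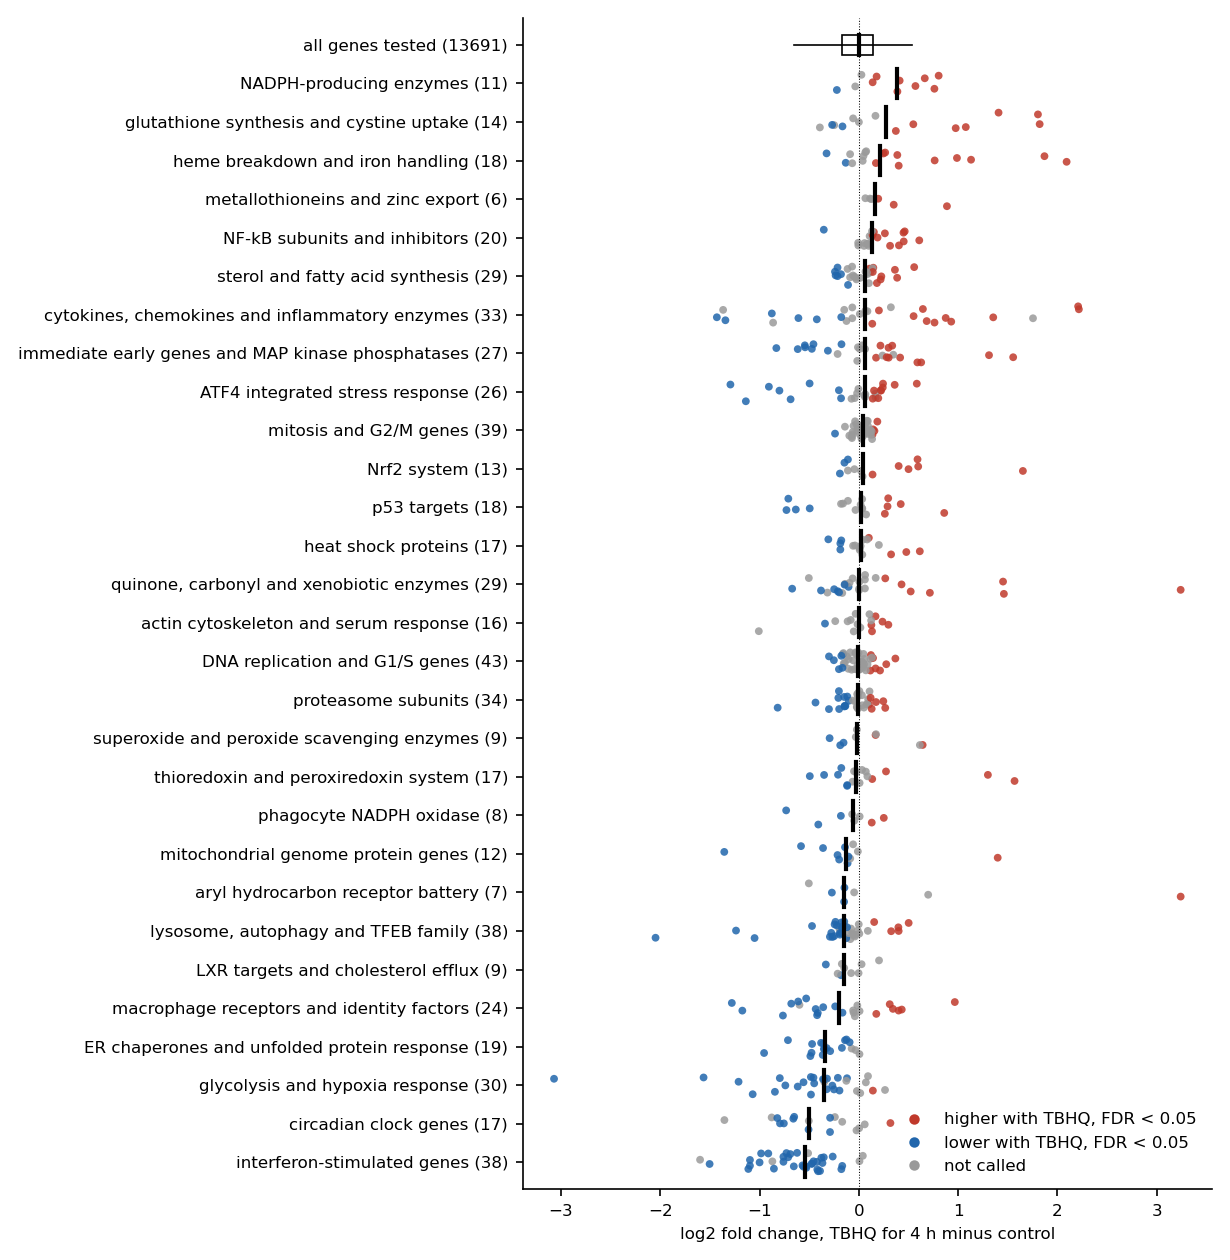
Each point is 1 gene of a list, placed by its log2 fold change with TBHQ, coloured by the call at FDR below 0.05, and the bar is the median of the list. The box at the top shows the quartiles of all tested genes with whiskers from the 5th to the 95th percentile, brackets give the number of genes tested, and genes with at most 3 counts in each of the 6 libraries are left out of the points.

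Some genes that bring in cystine and turn it into glutathione were among the strongest rises. Of 14 tested genes of glutathione synthesis and cystine uptake, 7 rose and 2 fell (1 by DESeq2), with a median log2 fold change of 0.27. Slc7a11, the cystine side of the cystine/glutamate exchanger, measured 9.56, 9.24 and 9.70 FPKM in the control libraries and 35.4, 32.2 and 32.1 FPKM with TBHQ. That is 3.49-fold (log2 1.80, SE 0.05, edgeR adjusted p = 7.8e-29). The groups lay far apart, with no TBHQ library near a control. Its partner chain Slc3a2 went the other way and fell by 0.16 on the log2 scale. Gclm, the modifier subunit of the enzyme that limits glutathione synthesis, stood at 17.6, 17.6 and 18.6 FPKM and, with TBHQ, 61.7, 64.4 and 64.2 FPKM, 3.53-fold (SE 0.03 on the log2 scale, edgeR adjusted p = 7.8e-29). The catalytic subunit gene Gclc rose 2.65-fold, from 22.1, 23.6 and 22.9 FPKM to 60.5, 61.4 and 60.4 FPKM. Both subunits thus rose by a wide step, and in each the 3 libraries of a group were close to one another. Gss, which completes the synthesis, had a log2 fold change of 0.00 and was not called. Gsr, which reduces oxidised glutathione, rose 1.97-fold, and Abcc1, an exporter of glutathione conjugates, rose 2.11-fold, from 16.5, 15.1 and 14.9 FPKM to 33.3, 32.1 and 33.1 FPKM. Slc1a4 and Abcc4 completed the 7 with log2 fold changes of 0.55 and 0.37, and Lancl1, which binds glutathione, was the other gene to fall, a call lost without TBHQ replicate 1 or control replicate 3 (log2 fold changes from -0.23 to -0.21). Chac1, which degrades glutathione, measured 8.99, 8.47 and 8.50 FPKM in the control and 9.42, 9.19 and 10.6 FPKM with TBHQ and was not called.

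In the thioredoxin system the enzyme genes Txnrd1 and Srxn1 changed most. Of 17 tested genes 4 rose and 6 fell, with a median of -0.03, so the list as a whole stood near the middle of all genes. Txnrd1, the cytosolic thioredoxin reductase, read 65.7, 60.6 and 63.0 FPKM in the control libraries against 155, 153 and 159 FPKM with TBHQ, 2.46-fold (SE 0.04 on the log2 scale, edgeR adjusted p = 1.4e-27). Srxn1, which restores overoxidised peroxiredoxins, went from 49.7, 48.1 and 52.3 FPKM to 145, 147 and 154 FPKM, 2.97-fold (SE 0.04, edgeR adjusted p = 7.4e-28). In both genes the lowest TBHQ library was more than double the highest control. Txn1, thioredoxin itself and already near 363 FPKM in control cells, rose by only 0.14 on the log2 scale. Prdx1, the most abundant peroxiredoxin of the list by reads, rose by 0.27, whereas Prdx5, a peroxiredoxin of mitochondria and peroxisomes, fell by 0.49 on the log2 scale. Txnip, which binds and inhibits thioredoxin, measured 96.1, 91.1 and 92.2 FPKM and then 73.7, 71.2 and 74.8 FPKM, a fall of 1.27-fold (edgeR adjusted p = 2.0e-08).

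Enzymes that supply NADPH to both systems mostly rose. Of 11 tested, 8 rose and 1 fell, with a median log2 fold change of 0.39, the highest median among the 29 lists other than markers of other cell types. G6pdx, which opens the pentose phosphate pathway, measured 110.2, 109 and 103 FPKM in the control and 167, 171 and 174 FPKM with TBHQ, 1.58-fold (SE 0.03 on the log2 scale, edgeR adjusted p = 5.5e-18). Pgd, the next NADPH-forming step, rose 1.70-fold, and its libraries read 98.2, 94.5 and 94.1 FPKM and then 162, 162 and 163 FPKM. H6pd, the enzyme of the endoplasmic reticulum that does the same chemistry, had the largest rise of the list at 1.75-fold. In the non-oxidative branch Taldo1 rose by 0.41 and Tkt by 0.39 on the log2 scale, while Rpe, an epimerase, fell by 0.22 on the log2 scale. Malic enzyme Me1 rose 1.49-fold, and Idh1 and Nadk rose by 0.14 and 0.18 on the log2 scale. No library of one group overlapped the other in G6pdx, Pgd, H6pd or Me1.

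Scavengers and the oxidase that makes superoxide changed in both directions. Among 9 tested superoxide and peroxide scavenging genes 2 rose and 3 fell, beside 14.2% and 14.8% of all tested genes. Cat, catalase, rose 1.56-fold, with 51.7, 55.4 and 54.4 FPKM in the control libraries and 83.7, 83.1 and 85.8 FPKM with TBHQ (edgeR adjusted p = 6.0e-16), and Sod1 rose by 0.17 on the log2 scale. Gpx4, which reduces lipid peroxides, fell by 0.29 on the log2 scale, and Selenof and Msrb1 fell by smaller amounts. Of 8 tested genes of the phagocyte NADPH oxidase 3 fell and 2 rose. Cybb, its catalytic membrane subunit, went from 89.4, 95.6 and 99.0 FPKM to 60.3, 55.5 and 55.5 FPKM, 1.66-fold lower (SE 0.06 on the log2 scale, edgeR adjusted p = 3.1e-18). Its membrane partner Cyba fell by 0.41 on the log2 scale, and the cytosolic subunit Ncf4 fell by 0.18. Rac1, a small GTPase of the complex, rose by 0.13 on the log2 scale. The Rac1 call was lost without control replicate 2, where its log2 fold change was 0.09.

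Quinone, carbonyl and xenobiotic enzymes gave a few strong rises within a list that did not move overall. Of 40 listed genes 29 were tested, 7 rose, 7 fell and the median was 0.00. Nqo1, a quinone reductase widely used as an Nrf2 marker, was close to silent in these cells: 1, 2 and 5 counts in the control libraries and 21, 28 and 33 counts with TBHQ. Its fitted change was 9.46-fold (log2 3.24, SE 0.38, edgeR adjusted p = 3.5e-06), and every TBHQ library lay above every control, but the TBHQ level was only 0.793, 1.10 and 1.25 FPKM. With so few counts the size of the rise is uncertain: without control replicate 3 its log2 fold change was 3.99. Cbr3, a carbonyl reductase, rose 2.75-fold, from 7.79, 7.64 and 6.18 FPKM to 18.8, 21.4 and 19.4 FPKM (edgeR adjusted p = 3.3e-14). The aldo-keto reductase gene Akr1b8 was far more abundant, at 73.7, 65.5 and 65.2 FPKM in the control and 179.6, 193 and 188 FPKM with TBHQ, and rose 2.74-fold. Akr1b3 rose 1.64-fold, Esd 1.44-fold and the microsomal glutathione transferase gene Mgst2 1.35-fold. Gstm1 rose by 0.27 on the log2 scale, a call that was lost without control replicate 3 (0.24), and its reads may be split with near-identical Gstm genes. Adh7, an alcohol dehydrogenase, fell by 0.67 on the log2 scale, with 2.24, 2.12 and 2.33 FPKM in the control and 1.60, 1.20 and 1.41 FPKM with TBHQ. Gsto1 fell by 0.38 on the log2 scale, and the abundant Akr1a1 fell by 0.10, a call lost without TBHQ replicate 1 (-0.08). Gsta3 was below the filter at 0 to 3 counts per library, and 10 other listed genes, Gsta1, Gstm2 and Mgst1 among them, were also not tested.

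The battery of the aryl hydrocarbon receptor, which many aromatic compounds activate, gave no general rise. Cyp1a1 and Cyp1b1 had no count in any of the 6 libraries. Of 7 tested genes 1 rose, which was Nqo1, and 3 fell, among them Nfe2l2, which is given below. Tiparp, a receptor target that represses it, fell by 0.27 on the log2 scale (edgeR adjusted p = 4.0e-05). The receptor's partner Arnt fell by 0.15 on the log2 scale, and that call was lost without TBHQ replicate 2, TBHQ replicate 3 or control replicate 3 (log2 fold changes from -0.15 to -0.12).

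Heme breakdown and iron export held strong rises, of which that of Hmox1 was the most abundant. Of 18 tested genes of heme and iron handling 10 rose and 2 fell, with a median of 0.21. Hmox1, heme oxygenase 1, measured 202, 187 and 192 FPKM in the control libraries and 797, 825 and 866 FPKM with TBHQ, 4.27-fold (log2 2.09, SE 0.05, edgeR adjusted p = 3.5e-31). The groups were separated by far more than the spread within either, and control cells already made the transcript at a high level. Slc40a1, the iron exporter ferroportin, read 5.60, 6.26 and 6.19 FPKM and then 22.4, 21.9 and 21.9 FPKM, 3.66-fold (SE 0.05 on the log2 scale, edgeR adjusted p = 7.4e-27). Slc48a1, which moves heme out of the phagosome, rose 2.19-fold, with 35.4, 37.0 and 34.8 FPKM in the control and 77.7, 77.5 and 79.9 FPKM with TBHQ. Blvrb, a biliverdin reductase, rose 1.70-fold, whereas its relative Blvra fell by 0.13 on the log2 scale, a call lost without TBHQ replicate 1 or control replicate 2 (-0.12 to -0.09). The constitutive heme oxygenase gene Hmox2 fell by 0.32 on the log2 scale. Ftl1, the ferritin light chain, rose 1.32-fold from 1721, 1938 and 1750.0 FPKM to 2274, 2431 and 2454 FPKM, and reads of this gene may be shared with its many processed copies. Fth1, the heavy chain, had 1885, 1838 and 1846 FPKM in the control and 1932, 1982 and 1925 FPKM with TBHQ and was not called by edgeR, though DESeq2 called it higher. Tfrc, which imports iron, had a log2 fold change of 0.04 and was not called either. Slc11a1, an iron transporter of the phagosome, rose by 0.39, the mitochondrial porphyrin transporter Abcb6 by 0.99 and Alas1, the first step of heme synthesis, by 0.27 on the log2 scale.

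In the Nrf2 system itself most genes were called, in both directions, and Osgin1 changed most. Of 13 tested 6 rose and 3 fell, with a median of 0.04. Nfe2l2, which encodes Nrf2, measured 39.4, 39.0 and 37.7 FPKM in the control libraries and 35.8, 34.5 and 34.8 FPKM with TBHQ and fell by 0.14 on the log2 scale (SE 0.03, edgeR adjusted p = 0.0077). Its 3 TBHQ libraries lay below the controls by a few FPKM. Keap1 rose by 0.14 on the log2 scale (edgeR adjusted p = 0.036), but the call was lost without any 1 TBHQ library and without control replicate 2 or control replicate 3 (0.11 to 0.14). Bach1, the repressor that competes with Nrf2 at the same elements, rose 1.42-fold, from 7.12, 7.13 and 7.49 FPKM to 10.3, 10.1 and 10.4 FPKM (edgeR adjusted p = 5.8e-09). Among the small Maf partners Mafg rose 1.51-fold and Mafk fell by 0.19 on the log2 scale. Nfe2l1, the related factor that responds to proteasome load, fell by 0.11 on the log2 scale, a call lost without control replicate 3 (-0.09). Osgin1 measured 4.09, 3.42 and 4.01 FPKM in the control and 11.9, 12.2 and 12.2 FPKM with TBHQ, 3.14-fold (SE 0.08 on the log2 scale, edgeR adjusted p = 9.9e-17). Sqstm1, the autophagy receptor that binds Keap1, rose 1.32-fold, with 617, 578 and 578 FPKM in the control and 769.9, 772 and 804 FPKM with TBHQ, and Trim16 rose 1.51-fold.

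**Figure D2:**
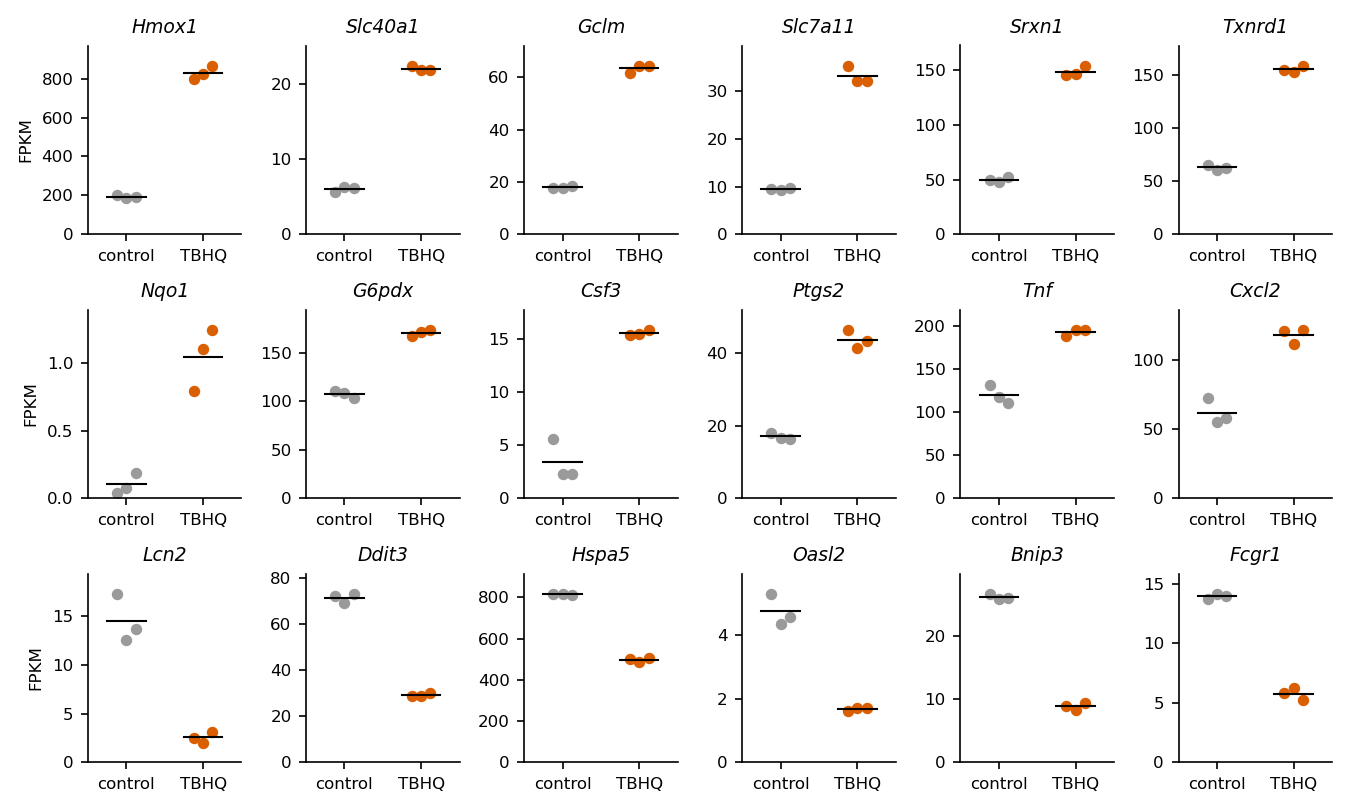
FPKM of 18 genes in each of the 3 control and 3 TBHQ libraries, with the group mean as a bar. Each panel has its own scale that starts at 0.

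Promoters of some of these genes were read to show the sequence in front of genes with large changes. Of the 12 genes with the largest rises by the ranking rule 6 had an entry in the RefSeq table of mouse promoters (build GRCm38.p6), and of the 12 with the largest falls 11 had one. On both strands of the 250 bases before the start, 3 motifs were searched: TGACNNNGC, the core of the antioxidant response element, TGACTCA, the AP-1 element, and CACGTG, an E-box, the first of which can overlap the second. They were present in 11.5%, 5.16% and 6.86% of all 27025 genes in the table, a gene counting once if any of its promoters had the motif. TGACNNNGC was found for Gclm and Lif among the 6 matched genes that rose and for Sh2d6 among the 11 that fell. TGACTCA was found for Lif, Osgin1 and Srxn1 among the former and for Ifi209 among the latter, and CACGTG for Ak4 and Bnip3, both among the latter. Csf3, Hmox1, Eid3, Slc40a1, Fosl1 and Tcn2 are among those without an entry. A match is only a string of letters in this window, and binding was not measured. The first 200 of the 250 bases are printed below, written on the strand of the gene with matches in capitals, for Gclm (chr3:122245307-122245506, plus strand, TGACNNNGC on the opposite strand), Osgin1 (chr8:119436897-119437096, plus strand, TGACTCA), Srxn1 (chr2:152105274-152105473, plus strand, TGACTCA on the opposite strand) and Bnip3 (chr7:138909557-138909756, minus strand, CACGTG).
Gclm: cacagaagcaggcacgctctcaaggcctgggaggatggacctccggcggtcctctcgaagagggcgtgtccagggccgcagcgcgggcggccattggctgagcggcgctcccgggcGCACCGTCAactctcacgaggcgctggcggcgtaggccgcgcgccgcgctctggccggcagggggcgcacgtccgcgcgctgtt
Osgin1: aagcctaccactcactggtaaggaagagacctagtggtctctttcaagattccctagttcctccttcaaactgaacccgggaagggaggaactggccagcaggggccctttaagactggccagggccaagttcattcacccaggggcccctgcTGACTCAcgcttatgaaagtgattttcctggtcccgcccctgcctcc
Srxn1: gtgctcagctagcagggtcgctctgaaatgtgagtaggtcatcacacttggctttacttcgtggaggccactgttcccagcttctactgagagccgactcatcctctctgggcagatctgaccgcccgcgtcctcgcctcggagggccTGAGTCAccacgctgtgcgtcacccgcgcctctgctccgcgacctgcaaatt
Bnip3: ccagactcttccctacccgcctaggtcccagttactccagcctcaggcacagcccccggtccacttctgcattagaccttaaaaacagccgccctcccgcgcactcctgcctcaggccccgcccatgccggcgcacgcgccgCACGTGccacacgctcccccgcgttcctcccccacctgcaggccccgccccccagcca

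Metal and heat shock genes changed in part. Of 6 tested genes of metallothioneins and zinc transport 3 rose and none fell: Mt2 by 0.89, the zinc importer Slc39a14 by 0.35 and Mt1 by 0.20 on the log2 scale. Mt2 measured 13.8, 20.1 and 18.1 FPKM in the control and 29.6, 32.7 and 34.6 FPKM with TBHQ (edgeR adjusted p = 5.0e-05), with no overlap. By DESeq2 the same list also gave 3 genes higher and none lower. Of 17 tested heat shock genes 4 rose and 4 fell, with a median of 0.02. Hspa1a was at most 0.165 FPKM in any of the 6 libraries and was not called, and its near-identical copy Hspa1b, with which it may share reads, rose by 0.61 on the log2 scale, a call lost without TBHQ replicate 3, control replicate 1 or control replicate 2 (0.47 to 0.56). Dnajb4 rose by 0.48 and the co-chaperone Bag3 by 0.33, while Hsp90ab1, the most abundant of the list, rose by 0.10. Among the falls Hspe1, the mitochondrial co-chaperonin, fell by 0.31 and Dnaja1 by 0.19 on the log2 scale, and the abundant Hspa8, from 371, 375 and 367 FPKM to 328, 323 and 336 FPKM, fell by 0.18. Hspa4l fell by 0.19 on the log2 scale, a call lost without TBHQ replicate 2, control replicate 2 or control replicate 3 (-0.18 to -0.09).

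Endoplasmic reticulum chaperones fell as a body. Of 19 tested genes of the unfolded protein response none rose and 16 fell by edgeR, and DESeq2 also called none higher and 17 lower. The median log2 fold change was -0.34. Hspa5, the chaperone BiP, measured 817, 814 and 813 FPKM in the control libraries and 503, 486 and 504 FPKM with TBHQ, 1.64-fold lower (SE 0.02 on the log2 scale, edgeR adjusted p = 1.4e-21). Its controls were almost equal to one another, and all 3 TBHQ libraries were far below them. Dnajb9, its co-chaperone, had the largest fall of the list, with 21.2, 19.4 and 19.4 FPKM and then 10.8, 10.1 and 10.1 FPKM, 1.94-fold. The disulfide isomerase gene Pdia4 fell by 0.49 and Herpud1, of the degradation machinery, fell by 0.48 on the log2 scale.

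The ATF4 list divided, with 9 of 26 tested genes higher and 8 lower. Ddit3, the factor CHOP, read 72.4, 69.4 and 73.3 FPKM in the control and 28.8, 29.1 and 30.1 FPKM with TBHQ, 2.45-fold lower (log2 -1.29, SE 0.03, edgeR adjusted p = 2.0e-21). Atf4 itself had 129.8, 134 and 132 FPKM in the control and 132, 129 and 134 FPKM with TBHQ, and was not called. Falls were also found in Ppp1r15a (1.74-fold), which restarts translation, Trib3 (1.61-fold), Stc2 (2.20-fold) and Nupr1, from 9.33, 9.98 and 9.63 FPKM to 4.90, 5.55 and 5.04 FPKM. The size for Stc2 is uncertain, with log2 fold changes from -1.54 to -0.87 when 1 library was left out. Slc7a5, an amino acid transporter, rose by 0.36 and Asns, asparagine synthetase, by 0.14 on the log2 scale. Cebpb had the largest rise of the list, 0.58 on the log2 scale (edgeR adjusted p = 8.9e-04).

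Targets of p53 showed no common direction, with 5 of 18 tested higher and 4 lower. Cdkn1a, the cell cycle inhibitor p21, rose 1.34-fold, with 43.8, 38.5 and 38.9 FPKM in the control and 52.1, 56.0 and 54.4 FPKM with TBHQ (edgeR adjusted p = 1.7e-09). Mdm2, Zmat3 and Aen rose by 0.26, 0.29 and 0.30 on the log2 scale. Gdf15, a secreted stress signal with fewer than 2 FPKM in all 6 libraries, rose by 0.86, a call lost without any 1 control library and without TBHQ replicate 1 or TBHQ replicate 3 (0.77 to 0.91). The death genes Pmaip1 and Bbc3 fell by 1.55-fold and 1.41-fold, Gadd45a by 1.64-fold and Trp53inp1 by 1.66-fold. Bax, the most abundant of the list and also a death gene, was not called.

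Early response genes and inflammatory mediators rose in part, in cells that received no stimulus. Of 33 tested cytokines, chemokines and inflammatory enzymes 11 rose and 6 fell, with a median of 0.07, or 0.08 without 5 genes that were at 0 in a whole group or at most 3 counts in every library. Csf3, the granulocyte growth factor, measured 5.58, 2.35 and 2.26 FPKM in the control libraries and 15.4, 15.5 and 15.9 FPKM with TBHQ, 4.65-fold (SE 0.42 on the log2 scale, edgeR adjusted p = 4.0e-15). Control replicate 1 was more than double the other controls and still well below the TBHQ libraries. Ptgs2, the inducible cyclooxygenase, went from 17.99, 16.7 and 16.4 FPKM to 46.3, 41.2 and 43.3 FPKM, 2.56-fold (SE 0.06, edgeR adjusted p = 2.3e-20), and Ptges, which makes prostaglandin E from its product, rose 1.70-fold. Cxcl2, a neutrophil attractant, read 72.7, 55.0 and 58.5 FPKM and then 121, 112 and 122 FPKM, 1.91-fold. Tnf rose 1.61-fold, with 132, 118 and 111 FPKM in the control and 189, 196 and 195 FPKM with TBHQ (edgeR adjusted p = 5.6e-15). Acod1, the itaconate-forming enzyme, rose 1.83-fold, Ccl2 1.47-fold and Cxcl10 1.56-fold. Ccl3, the most abundant chemokine of the list, rose by 0.14 on the log2 scale, a call lost without TBHQ replicate 1 or 2 and without control replicate 2 or 3 (0.12 to 0.13).

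Other mediators fell or were not called. Il6, with 0.402, 0.581 and 0.414 FPKM in the control and 0.145, 0.202 and 0.169 FPKM with TBHQ, was 2.69-fold lower (edgeR adjusted p = 0.0011), at levels far below 1 FPKM throughout. Csf1, the macrophage growth factor, fell 1.84-fold, Mmp9 fell 1.52-fold and the chemokine gene Ccl9, from 204, 230.1 and 209.7 FPKM to 161, 165 and 155 FPKM, fell 1.34-fold. Nos2, inducible nitric oxide synthase, fell by 0.18 on the log2 scale, a call lost without TBHQ replicate 2 or control replicate 3 (-0.14 in both cases). Il27 fell by 1.34 on the log2 scale at 5 to 17 counts per library, and it lost the call without TBHQ replicate 1 or 2 and without control replicate 1 or 3 (-1.38 to -1.14). Il1b had 1, 2 and 1 counts in the control libraries and 0, 2 and 13 with TBHQ and was not called.

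In the NF-kB list 10 of 20 tested genes rose and 1 fell, with a median of 0.14. Inhibitors were among the larger rises: Tnip1 rose 1.53-fold, and Nfkbia, which holds NF-kB in the cytosol, rose 1.32-fold from 54.8, 53.9 and 49.6 FPKM to 66.2, 72.2 and 71.5 FPKM (edgeR adjusted p = 3.8e-09). Nfkbiz, Bcl3 and Nfkbid, nuclear relatives of the same family, rose by 0.46, 0.45 and 0.45 on the log2 scale, and Nfkbib was the gene that fell, by 1.28-fold. Immediate early genes were mixed, with 11 of 27 tested higher and 8 lower. Fosl1, an AP-1 subunit, rose 2.94-fold, with 3.08, 2.20 and 2.30 FPKM in the control and 7.27, 7.70 and 7.27 FPKM with TBHQ (SE 0.15 on the log2 scale, edgeR adjusted p = 1.8e-12). Fos had 20.7, 21.2 and 21.0 FPKM and then 21.6, 21.2 and 20.6 FPKM and was not called. Egr1 fell 1.78-fold, Atf3 1.45-fold and Jund 1.37-fold, while Myc rose 1.51-fold. The phosphatase genes Dusp5 and Dusp4, which switch MAP kinases off, rose by 0.63 and 0.30 on the log2 scale, and Ier3 rose by 0.42.

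Interferon-stimulated genes were mostly lower. Of 38 tested none rose and 32 fell by edgeR, DESeq2 gave the same counts, and the median log2 fold change was -0.54, the lowest among the 29 lists. Oasl2, of the antiviral oligoadenylate synthetase family, measured 5.30, 4.36 and 4.59 FPKM in the control libraries and 1.62, 1.71 and 1.70 FPKM with TBHQ, 2.83-fold lower (SE 0.09 on the log2 scale, edgeR adjusted p = 6.0e-17). Isg15, the ubiquitin-like modifier, fell 1.88-fold, from 109, 106 and 96.4 FPKM to 49.9, 56.0 and 59.8 FPKM. In neither gene did a TBHQ library reach the lowest control. Bst2, the restriction factor tetherin and the most abundant gene of the list, fell 1.37-fold, with 343, 337 and 334 FPKM in the control and 231, 242 and 267 FPKM with TBHQ. Ifit3, Zbp1, Isg20 and Ifit2 fell by between 2.16-fold and 1.98-fold. Ifit1 and Rsad2 fell less, 1.34-fold and 1.39-fold, both with no overlap of the groups. Among the factors that drive these genes Stat2 fell 1.64-fold and Irf7 1.39-fold, whereas Irf1 had a log2 fold change of 0.04 and was not called. The immunoproteasome genes Psmb9 and Psmb8, known interferon targets within the proteasome list, fell 1.76-fold and 1.35-fold. In that list 12 of 34 tested genes fell and 6 rose, Psmd11 most, by 0.27 on the log2 scale, and the median was -0.01, with the most abundant subunit gene Psma5 not called.

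Genes of glycolysis and the response to low oxygen fell broadly. Of 30 tested 22 fell and 1 rose (2 by DESeq2), with a median of -0.35. Bnip3, a receptor for removal of mitochondria, measured 26.7, 25.8 and 25.9 FPKM in the control libraries and 8.94, 8.21 and 9.40 FPKM with TBHQ, 2.96-fold lower (SE 0.06 on the log2 scale, edgeR adjusted p = 4.3e-21). Ndrg1 read 24.1, 22.3 and 24.0 FPKM and then 10.5, 9.92 and 9.997 FPKM, 2.31-fold lower. Slc16a3, which exports lactate, fell 1.80-fold, Pfkl, a liver-type phosphofructokinase, fell 1.74-fold, and Pdk1, which closes pyruvate's way into mitochondria, fell 1.67-fold. Tpi1 fell 1.47-fold and Ldha 1.28-fold, both abundant and both with processed copies that may share reads. The angiogenic factor gene Vegfa fell 1.53-fold and Ankrd37 fell 2.10-fold, the latter with log2 fold changes from -1.30 to -0.87 when 1 library was left out. P4ha2, a collagen prolyl hydroxylase, had 13, 14 and 8 counts in the control and 1, 0 and 3 with TBHQ, and a fitted log2 fold change of -3.07 (SE 0.43, edgeR adjusted p = 3.8e-04). Its size is uncertain, at -4.27 without TBHQ replicate 3 and -2.55 without TBHQ replicate 2, and limma on log2 FPKM plus 1 did not call it. Hif1a, the oxygen-regulated factor, was the gene that rose, by 0.14 on the log2 scale, and lost the call without TBHQ replicate 1 or control replicate 1 (0.11 in both cases). DESeq2 called 2 genes higher in this list and the same number lower as edgeR. Pkm, at 1014, 935 and 939 FPKM in the control and 988, 1026 and 1024 FPKM with TBHQ, was not called by edgeR, though DESeq2 called it higher. Harvest time differs between the groups, and its part in these values was not tested.

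Other genes among the 12 largest rises act in signalling and differentiation. Lif, a cytokine of the interleukin 6 family that belongs to the cytokine list, measured 0.315, 0.198 and 0.286 FPKM in the control and 1.21, 1.20 and 1.29 FPKM with TBHQ, 4.62-fold (SE 0.19 on the log2 scale, edgeR adjusted p = 9.5e-10). Eid3, an inhibitor of differentiation related to a subunit of the SMC5/6 complex, rose 3.70-fold and Lpar1, a receptor for lysophosphatidic acid, rose 3.09-fold, with 1.45, 1.48 and 1.67 FPKM in the TBHQ libraries. All 3 TBHQ libraries lay above all 3 controls in each of these, as the ranking rule requires.

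The 12 largest falls include secreted proteins of the acute phase. Lcn2, which binds bacterial iron carriers, went from 17.3, 12.5 and 13.7 FPKM to 2.53, 1.98 and 3.18 FPKM, 5.64-fold lower (log2 -2.50, SE 0.24, edgeR adjusted p = 1.2e-19). Saa3, a serum amyloid, fell 3.78-fold, from 2.07, 2.14 and 1.68 FPKM to 0.495, 0.516 and 0.540 FPKM, and Cp, the copper oxidase ceruloplasmin, fell 3.16-fold at less than 1 FPKM. Tcn2, the carrier of vitamin B12, fell 3.34-fold and the zinc importer Slc39a2 fell 3.03-fold. Avil, an actin-binding protein of the villin family, measured 4.49, 3.58 and 4.20 FPKM and then 0.915, 0.936 and 1.28 FPKM, 3.91-fold lower. Ak4, an adenylate kinase of mitochondria, fell 2.97-fold from 16.9, 14.5 and 14.7 FPKM to 5.49, 4.51 and 5.51 FPKM, and Rgs16, which quenches G protein signals, fell 2.94-fold. Sh2d6 fell 3.04-fold. Ifi209, an interferon-inducible gene of a family of close copies, fell 3.21-fold and Gm6377 fell 3.49-fold, and both are uncertain because reads may be split among near-identical genes.

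Clock genes were lower in part, and of the cell cycle genes those of mitosis were seldom called. Of 17 tested circadian genes 8 fell and 1 rose, with a median of -0.50. Nr1d2, a repressor of the clock loop, fell 1.69-fold, with 4.91, 5.38 and 5.22 FPKM in the control and 3.13, 2.89 and 3.18 FPKM with TBHQ (edgeR adjusted p = 1.2e-08). Tef fell 1.58-fold, Ciart 1.77-fold, Bhlhe40 1.42-fold and Per1 1.22-fold. Dbp, another output gene, fell by 0.79 on the log2 scale, a call lost without TBHQ replicate 1 or 2 or control replicate 1 (-0.74 to -0.58). Nr1d1 had 2.20, 2.13 and 2.25 FPKM and then 1.64, 1.71 and 2.23 FPKM and was not called, nor was the abundant Nfil3, and Arntl, the activator of the loop, was the gene that rose, by 0.32 on the log2 scale. Harvest hour and TBHQ cannot be told apart in these genes. In the G1/S list 7 of 43 tested genes rose and 6 fell (2 by DESeq2), shares near the 14.2% and 14.8% of all genes, and in the G2/M list 4 of 39 rose and 1 fell, with medians of -0.01 and 0.04. Ccnd1, cyclin D1, rose 1.29-fold from 78.8, 67.8 and 70.2 FPKM to 92.7, 94.7 and 93.0 FPKM. Ung, which removes uracil from DNA, had the largest fall, 0.30 on the log2 scale, and lost the call without TBHQ replicate 2 or control replicate 2 (-0.27 to -0.25), and the abundant Pcna was not called. Ccne1 and Ccnb1 were not called, at log2 fold changes of 0.01 and -0.02. Mcm5 rose by 0.12, a call lost without TBHQ replicate 1 or 3 or control replicate 1 or 3 (0.09 to 0.12). Cdc20 had the largest of the 4 mitotic rises, 0.19 on the log2 scale, and Bub1 fell by 0.24. Bub1b rose by 0.14 and lost the call without TBHQ replicate 1 (0.12). Ccnb2 rose by 0.16 and lost it without TBHQ replicate 1 or 3 or control replicate 2 or 3 (0.14 to 0.17), and Plk1, with overlapping groups, rose by 0.14 and lost it without TBHQ replicate 2 or 3 or control replicate 2 or 3 (0.10 to 0.13).

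Macrophage receptors and identity factors shifted in both directions. Of 24 tested 6 rose and 12 fell, with a median of -0.20. Fcgr1, the high-affinity receptor for immunoglobulin G, measured 13.8, 14.2 and 13.99 FPKM in the control libraries and 5.85, 6.21 and 5.26 FPKM with TBHQ, 2.43-fold lower (SE 0.07 on the log2 scale, edgeR adjusted p = 7.9e-15). Each TBHQ library was below the lowest control by a wide margin. Cd86, a costimulatory ligand, fell 2.25-fold, the fungal receptor gene Clec7a 1.70-fold and the chemokine receptor gene Cx3cr1 1.53-fold. The surface markers Adgre1 and Itgam fell 1.44-fold and 1.33-fold, and Lyz2, at 4601, 4647 and 4345 FPKM in the control and 4075, 4081 and 3994 FPKM with TBHQ, fell by 0.16 on the log2 scale. Cebpa, a factor of the myeloid lineage, rose 1.95-fold, with 3.24, 2.91 and 3.50 FPKM in the control and 5.94, 6.57 and 6.41 FPKM with TBHQ, the scavenger receptor gene Cd36 rose 1.35-fold and Csf1r rose by 0.18 on the log2 scale. In bulk RNA, fewer cells that carry a transcript and less of it per cell cannot be told apart.

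Lysosome and autophagy genes fell more often than they rose, 20 against 5 of 38 tested, with a median of -0.15. The 5 that rose include 2 of the factors that control them, Tfe3 (1.42-fold) and Mitf (1.32-fold), with Sqstm1, Gabarapl1 and Lamp1. Atp6v0d2, a subunit of the proton pump, fell 1.39-fold, Wipi1 fell 2.07-fold and Ctsd, the abundant cathepsin D gene, fell by 0.13 on the log2 scale. Optn, an autophagy receptor with 0 to 22 counts per library, had the lowest log2 fold change of the list at -2.05, its groups overlap, without TBHQ replicate 1 it was -2.74, and the call was lost without TBHQ replicate 3 or control replicate 3 (-1.57 to -1.47). Sterol and fatty acid genes were mixed, with 9 of 29 tested higher and 6 lower. Fasn, fatty acid synthase, rose 1.47-fold, from 51.4, 49.2 and 50.02 FPKM to 70.7, 74.1 and 77.2 FPKM (edgeR adjusted p = 8.9e-14), and Acaca, which makes its substrate, rose 1.29-fold. Hmgcs1 fell by 0.23, Insig1 by 0.24 and Scd2, the most abundant of the list, by 0.11 on the log2 scale. Of 9 tested LXR targets and genes of cholesterol efflux none rose and 2 fell by edgeR, as by DESeq2. Of all tested genes 14.2% rose and 14.8% fell, and so few genes do not set this list apart. The 2 were Smpdl3a and Nr1h2, the latter with the call lost without TBHQ replicate 2 (-0.15), while the most abundant, Lpcat3, was not called. In the actin list 5 of 16 tested genes rose, Myh9 most at 1.23-fold with Tpm1, Actn1, Actn4 and Flna, and Actg1 fell 1.27-fold, while Actb was not called.

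Protein genes of the mitochondrial genome gave 1 higher and 8 lower of 12 tested, with a median of -0.13. The most abundant, mt-Co1, fell by 0.14 on the log2 scale, from 5639, 6008 and 6064 FPKM to 5344, 5341 and 5428 FPKM, a call that limma on log2 FPKM did not make. The extremes of the list, mt-Co2 (log2 -1.35) and mt-Nd4l (log2 1.40), are uncertain: mt-Nd4l overlaps its neighbour mt-Nd4, mt-Co2 can share reads with nuclear copies of the mitochondrial genome, and the methods do not say whether strand was used in counting. Control replicate 1 held 411 FPKM of mt-Co2, against 154 and 128 FPKM in the other controls, and without it the log2 fold change of mt-Co2 was -0.65.

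Cells given a stimulus offer a second view of TBHQ, in which both arms were lysed after 12 h of stimulus. Whether the arms without TBHQ first waited through the 4 h of the others is not stated. These pairs, LPS with TBHQ against LPS and PIC with TBHQ against PIC, share no library with the comparison of TBHQ alone. The pair with LPS gave 1601 genes higher (11.7%) and 1673 lower (12.2%), and the pair with PIC 2167 higher (15.8%) and 2118 lower (15.5%). Of the 1943 genes higher with TBHQ alone, 559 were also higher in the LPS pair (28.8% of the first list and 34.9% of the second) and 184 were lower. Of the 2030 genes lower with TBHQ alone, 714 were also lower in the LPS pair (35.2% and 42.7%) and 148 were higher. In the PIC pair 597 genes were shared among the higher (30.7% and 27.6%) and 675 among the lower (33.3% and 31.9%), with 322 and 278 in opposite directions. Tested directly, the change with TBHQ alone exceeded the change in the LPS pair in 1278 genes (9.33%) and fell short of it in 1251 (9.14%), and for PIC these counts were 1716 (12.5%) and 1816 (13.3%). The time since TBHQ was added differs between the settings, so stimulus and time cannot be told apart.

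Several antioxidant genes were higher in all 3 settings, with the largest change for TBHQ alone. Gclm had log2 fold changes of 1.82 alone, 0.98 with LPS and 1.10 with PIC, and the difference passed the test in both cases (edgeR adjusted p = 1.5e-14 and 6.6e-13). Txnrd1, with the larger rise given above for TBHQ alone, was at 0.44 and 0.29, and Slc40a1 went from 1.87 to 0.49 and 0.73. Hmox1 stood out by its sign: 2.09 alone, but -0.30 with LPS and -0.16 with PIC (edgeR adjusted p of the difference = 1.5e-28 and 9.5e-28). Other enzymes held or gained: Cbr3 was at 1.24 and 1.47 in the pairs without a called difference, Cat at 0.80 and 0.92, and Prdx1 at 0.90 and 0.66, both above their values alone by the test. Adh7, lower with TBHQ alone, was higher in both pairs, at 0.71 and 1.10.

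Several inflammatory genes that rose with TBHQ alone were lower with TBHQ once a stimulus followed. Ptgs2 changed by 1.35 on the log2 scale alone, -0.69 with LPS and -1.11 with PIC (edgeR adjusted p of the difference = 2.8e-21 and 5.3e-24). Tnf went from 0.68 to -0.24 and -0.83, Cxcl2 from 0.93 to -0.21 and -0.75, and Ccl2 from 0.55 to -1.03 and -0.97, each with a called difference. Of 33 tested genes of the cytokine list, 20 had a called positive difference against the LPS pair and 23 against the PIC pair, with 1 negative in either. For the interferon-stimulated genes all 3 settings had negative medians, -0.54 alone, -1.02 with LPS and -0.73 with PIC. The differences, TBHQ alone minus the pair, were called positive for 30 of 38 tested genes and negative for 1 against LPS, and for 16 and 7 against PIC. Rsad2, for example, changed by -0.47, -2.33 and -1.64. Fcgr1, of the macrophage receptor list, changed by -1.28, -1.37 and -1.08, with no called difference.

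Chaperone genes that were lower with TBHQ alone were not lower as a body in the pairs with a stimulus. The list of the unfolded protein response had medians of -0.34 alone, 0.02 with LPS and 0.05 with PIC, and 15 and 17 of its 19 genes had a called negative difference. Hspa5 changed by -0.71, -0.15 and -0.16. The clock list had medians of -0.50, 0.00 and -0.02, with a called negative difference in 3 and 5 of its 17 genes and a positive one in 1 for either stimulus. Glycolysis and hypoxia genes had medians of -0.35 alone and -0.23 and -0.28 in the pairs, and of 30 tested genes 14 had a called negative difference and 7 a positive one against LPS, with 12 and 7 against PIC. Bnip3 changed by -1.16 and -1.29. Mitotic genes, of which few were called with TBHQ alone, were higher in the pairs, with medians of 0.44 and 0.31 and a called negative difference in 38 and 24 of 39 genes.

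**Figure D3:**
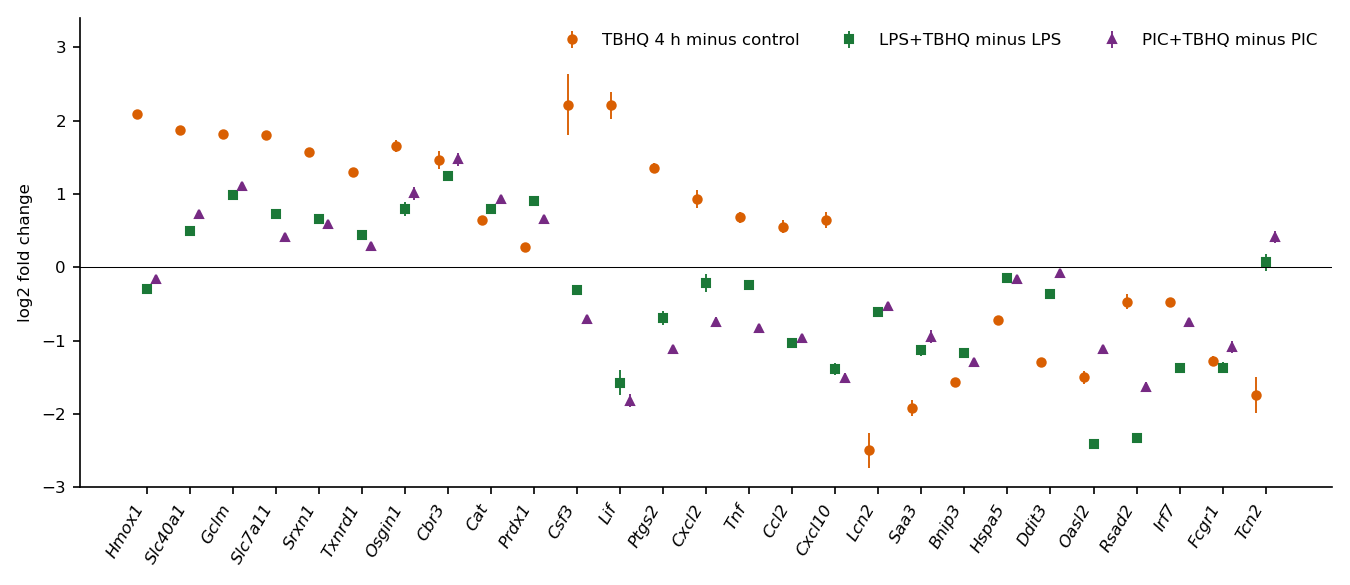
Log2 fold change with its standard error for 27 genes with TBHQ alone against control and with TBHQ before LPS or PIC against the stimulus without TBHQ. The first comparison is harvested 4 h after TBHQ and the others after a further 12 h of stimulus.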

How the data were processed

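The 3 control and 3 TBHQ libraries are the data described, and the 12 other libraries entered the fit. Per the submitters' processing notes, reads were aligned with HISAT2 2.0.5 and the authors deposited gene counts from featureCounts 1.5.0-p3. The deposited FPKM values equal the counts of the authors divided by gene length and library total, times a constant per library, and StringTie 1.3.3b is also named. The notes name the genome both as GRCm38 and as mm39, and do not say whether strand was used in counting. Totals were 14599770, 15410984 and 15932183 counts in the control libraries and 16112546, 15552492 and 16267145 with TBHQ. No fold change is printed here for a gene with at most 3 counts in every library of both groups. Where such a gene passed the filter, it stayed in the fit and in the median of its list.

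Counts were fitted with edgeR 4.0.16 in R 4.3.3: low counts filtered with filterByExpr, TMM factors, 1 quasi-likelihood model of 6 groups, and contrasts for TBHQ against control, for each pair with a stimulus and for the differences between them. Where a symbol had more than 1 identifier, the one with the highest mean count over 18 libraries was kept. Tables and figures used Python 3.11.15, pandas 2.3.3, numpy 2.4.6 and matplotlib 3.10.9. Genes were named if they stood among 52 given by name, or among the 12 highest or 12 lowest log2 fold changes of genes whose groups did not overlap, that passed the FDR of 0.01 and that averaged 50 or more counts in the 6 libraries. Named as well were the called member of each list with the largest rise, the one with the largest fall and the most abundant member, all members behind a count of at most 5, and the 5 called genes with the largest positive and negative differences for each stimulus. Some genes that this rule selects are not reported here. All other genes named here were chosen after their values were seen, and the members and lists were chosen with earlier results of these data known. Alternatives were DESeq2 1.42.0, limma 3.58.1 on log2 FPKM, other scalings, other filters, a replicate block, leaving out each library and stricter thresholds. Alternatives for the calls shared with the pairs and for the differences of single genes were added after the data were seen. The fit was also tested on simulated data.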

Additional observations from a re-analysis of the deposited data

Results flagged for a closer look

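What singled these genes out is a tested difference between settings: the log2 change with TBHQ alone minus the change with TBHQ before a stimulus, each with an edgeR FDR below 0.05, in genes called with TBHQ alone. Against LPS, the difference was 3.78 for the cytokine gene Lif and 2.53 for Csf3. In the other direction it was -2.85 for Mfap1b, -2.32 for the phosphatase gene Ptpn14, -2.21 for the integrin gene Itgax, -2.10 for a gene without a symbol and -2.08 for the carbonic anhydrase gene Car6. Mfap1b is uncertain because it can share reads with its near copy Mfap1a, and its call with TBHQ alone was lost without control replicate 2 (-0.47). Against PIC, the difference was 4.03 for Lif, and -2.58 for Cpeb1, -2.35 for the myosin gene Myh14, -2.22 for Ptpn14, -2.16 for Tcn2 and -2.12 for the oxidase gene Nox3. The Myh14 call with TBHQ alone was lost without control replicate 1 (-0.44). Il1b, Edn1 and Serpinb2 also stood among the largest differences and were not called with TBHQ alone.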

How the results depend on the processing

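The 3973 genes called with TBHQ alone became 3042 to 4085 under the alternatives, 3211 to 3482 without any 1 of the 6 libraries and 2700 at an FDR below 0.01, and no gene given here that was called turned direction. Of the genes not called, the sign of some changed when 1 library was left out, Il1b and Hspa1a among them. The 26 genes of the stricter rule were 24 to 37 with any 1 library left out, 20 by DESeq2 and 39 with no filter, of which 24 were shared. Without 1 control or TBHQ library, 18 to 22 of the 26 were kept, so the genes changed more than their number. The stricter rule gave 16 when only the compared conditions were fitted, 2 and 13 by limma on log2 FPKM plus 1 and plus 0.1, and the cause was not tested. A mean of at least 50 counts gave 7, where fewer genes were tested, and an absolute log2 fold change above 1 gave 190. The differences were 2109 to 2590 genes for LPS and 3060 to 3595 for PIC with any 1 library left out. Scaled by total library size, they were 1054 positive and 1509 negative for LPS, against 1278 and 1251, and 1153 and 2696 for PIC, against 1716 and 1816, so the split of the differences depends on the scaling, whose cause was not tested. A block for replicate number gave 4036 genes in both fits, 26 and 16 by the stricter rule, 2620 and 2615 for LPS and 3584 and 3556 for PIC. Replicates share only a number: after removal of group means, the same-number correlations between control and TBHQ were 0.0191, 0.00751 and 0.00225, and none of 45 pairs exceeded 0.1. By DESeq2 the lists of glutathione, glycolysis and G1/S genes gave 1 lower, 2 higher and 2 lower. Beside the calls given above as lost without 1 library, limma lost P4ha2 on log2 FPKM plus 1 and mt-Co1 on both scales. For the differences, limma on both scales lost the call of Mfap1b against LPS, and no filter that of Serpinb2 against PIC. Genes not called gained a call in some settings: Fth1 and Pkm by DESeq2, with no filter and when only the compared conditions were fitted, Fth1 also with RLE factors, Chac1 by limma, and Fth1, Pkm and Psma5 with some libraries left out. With the block for replicate number Fth1 was called in both fits and Pkm in that of the compared conditions, and the cause was not tested. Of the 26 genes of the stricter rule, 21 averaged fewer than 50 counts, where depth limits precision.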
